A study of Mus musculus with 4 samples.

Results

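The genes of the DNA replication machinery were followed in DC2.4 cells, an immortalised mouse dendritic cell line. They were the rows of the deposited gene table whose gene name is on a list of 48 names. The list holds Claspin, the protein, beside its gene Clspn, so the names stand for 47 genes of the 54532 in the table. The genes cover the origin recognition complex, the licensing factors, the MCM helicase and its activators, the 3 replicative polymerases, the sliding clamp and its loader, the single-strand binding protein, the enzymes that join lagging-strand fragments, and the fork protection proteins. Cells were exposed for 24 h either to ginsenoside Rb1 at 10 uM, a saponin of ginseng, or to its vehicle, and total RNA was sequenced in pairs. There were 2 libraries per group. The labels name them as biological replicates but do not say whether they came from separate cultures, and the p-values therefore cover the spread between these libraries, which may be technical. The name Rb1 stands for the compound throughout, except where the retinoblastoma gene is named as such. As a line kept in culture, DC2.4 is a model of dendritic cells and not a primary population.

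Replication starts at origins. The origin recognition complex, with CDC6 and CDT1, loads the MCM helicase on DNA in G1, and geminin, the product of Gmnn, binds CDT1 and blocks further loading once S phase has begun. The CDC7-DBF4 kinase, CDC45, GINS and MCM10 then turn the loaded helicase into an active one. Polymerase alpha with primase makes the first stretch of each new strand, polymerases epsilon and delta extend the leading and the lagging strand, PCNA holds them on DNA, RFC loads PCNA, and FEN1 and LIG1 finish the lagging-strand fragments. Many of these genes are known targets of the E2F transcription factors in cycling cells, and their transcripts are low in resting cells.

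The libraries held between 17829784 and 18641021 counts, and 13518 genes had enough counts to be tested. Each of the 47 replication genes was among them, and the lowest count of any of them in any library was 104 (Fen1, vehicle replicate 1), so none had passed the filter through 1 group alone. The leukocyte and dendritic markers Ptprc and Zbtb46 were higher and Itgax, Cd74, Csf1r, Irf8 and Itgam lower with Rb1, while Flt3, Batf3 and H2-Ab1 had at most 15 counts in any library, so that 3 of the 10 markers of the labelled cell type were near absent. The 10 markers summed to 1012 and 984 CPM in Rb1 libraries and 1597 and 1645 CPM in vehicle libraries, and the 5 macrophage markers, of which 4 were tested and lower, to 928 and 932 CPM in Rb1 libraries and 1471 and 1468 CPM in vehicle libraries. Markers of T cells, B cells, fibroblasts and epithelium summed to at most 1.60 CPM per list in Rb1 libraries and 7.14 CPM in vehicle libraries. The part of these shifts in the results below was not tested. In bulk RNA, a change in the share of cells that are in S phase and a change in RNA per cell cannot be told apart.

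Replication transcripts were higher with Rb1 in most of the machinery. Together the 47 genes took 0.449% and 0.448% of all counts in Rb1 libraries, against 0.218% and 0.223% in vehicle libraries. On the CPM scale (counts relative to library size, after TMM scaling, a correction for library composition) their sum was 4123 and 4122 CPM in Rb1 libraries and 2434 and 2377 CPM in vehicle libraries. Of the 47 genes, 38 were higher and 1, Orc3, was lower at an adjusted p under 0.05 (edgeR quasi-likelihood test, Benjamini-Hochberg adjustment over all 13518 genes), and 8 did not pass. Among all genes tested 72.0% passed in either direction and 35.7% passed as higher, so the share of genes called at all was common here and the direction was less so. The members' median log2 fold change (Rb1 over vehicle) was 0.74, a 1.67-fold difference, with a range of -0.18 to 2.33, and that of all genes tested was -0.01. At least 2-fold higher were 16 of the 47, and 14.2% of all genes tested. Both Rb1 libraries lay above both vehicle libraries in 43 of the 47, and in 43.0% of all genes tested. In either direction the groups did not overlap in 44 of the 47, and in 86.3% of all genes tested. Within the pair of libraries numbered 1 the members' median was 0.69 and within the pair numbered 2 it was 0.76, and 45 of the 47 genes were higher with Rb1 in both pairs. The other 2 were Orc3, lower in both, and Pcna, which was lower in the first pair (-0.10) and higher in the second (0.24). Over all genes tested the share higher in both pairs was not counted, but it is at least the 43.0% given above. Without TMM scaling, using library totals, the median of all genes moved to 0.23 and that of the members to 0.99, and 46 members were then called higher. Of all calls 62.6% were then higher, against 49.6% with TMM.

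**Figure D1:**
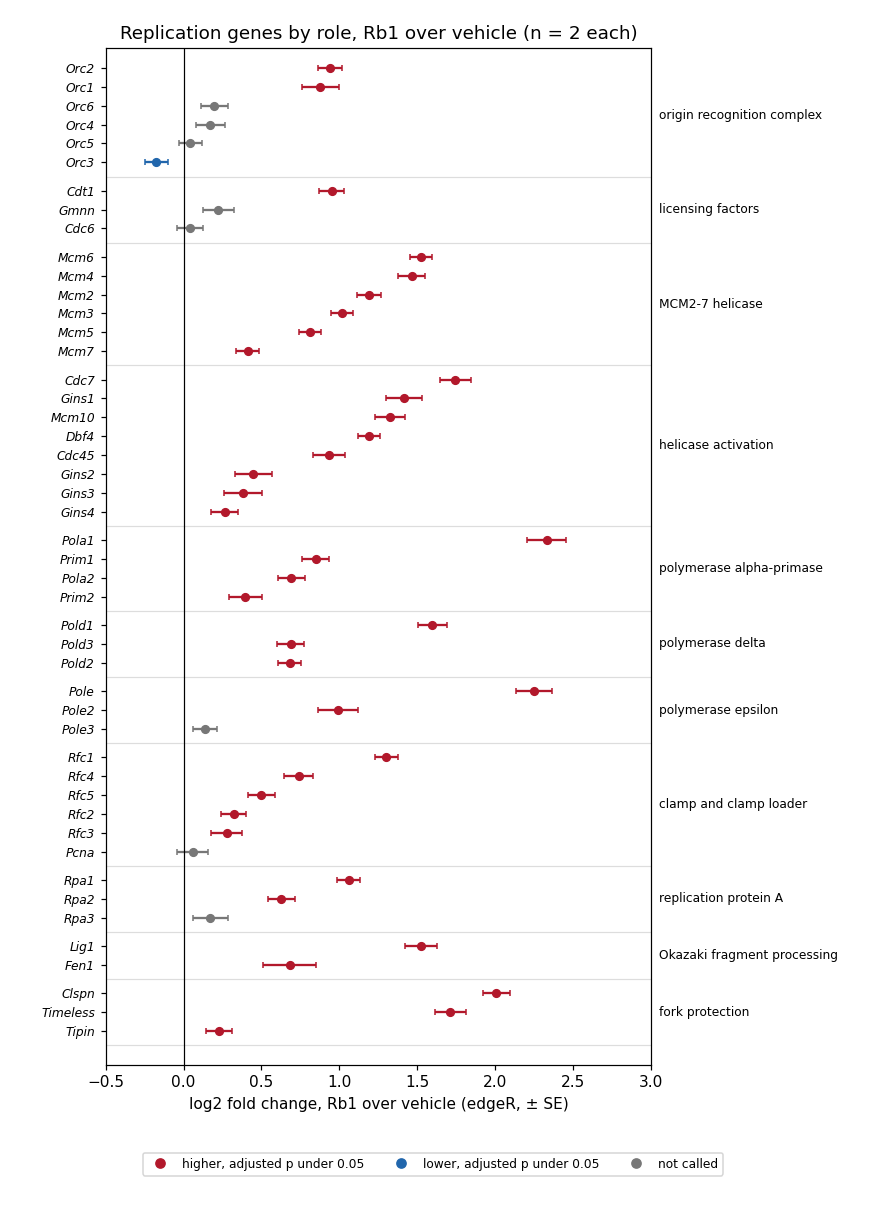
Log2 fold change (Rb1 over vehicle, edgeR) of the 47 replication genes, grouped by role. Bars are 1 standard error and the fill of a point gives its call. The largest values belong to Pola1 (2.33), Pole (2.25) and Clspn (2.01), and the smallest medians by role are those of the origin recognition complex (0.19) and the licensing factors (0.22).

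Promoters of these genes were read for the letters that E2F factors bind. The RefSeq promoter table (GRCm38.p6, 250 bases before to 50 after each start) held 38 of the 47 genes by symbol. Mcm4, Gmnn, Gins1, Gins2, Gins4, Prim2, Pole, Rfc2 and Tipin had no entry matched. The E2F-type words searched were TTTCCCGC, TTTCGCGC, TTTGCCGC and TTTGGCGC on both strands, counting overlapping matches separately. At least 1 word was present in 16 of the 38 genes (42.1%), against 4.81% of 9612 tested genes with a promoter, 2.61% of all 27025 genes of the table and 2.26% of its 32851 promoters. The members with a word were Orc1, Orc3, Cdc6, Cdt1, Mcm3, Mcm5, Mcm6, Mcm7, Gins3, Pola1, Pold1, Pold3, Pole2, Rfc3, Lig1 and Clspn. A word was present in 6 of the 13 members at least 2-fold higher (46.2%) and in 10 of the other 25 (40%), a difference that was not tested. Of the 16 genes with a word 14 were higher, Orc3 was lower and Cdc6 did not pass, with a median log2 fold change of 0.91, while of the 22 without one 16 were higher and 6 did not pass, with a median of 0.71. Other elements of cell cycle promoters, the CHR (TTTGAA) and the CCAAT box (CCAAT), were counted the same way. The CHR was present in 18.4% of members, 14.8% of tested genes and 20.2% of all genes of the table. The CCAAT box was present in 57.9% of members, 43.5% of tested genes and 41.1% of all genes of the table. The letters of both elements differ from the E2F-type words, though the ends of neighbouring matches can share bases. The median GC content was 61.3% over the members' 47 promoters and 60.3% over those of tested genes. The 5 sequences below are shown because they span the range of response among genes with a word. Mcm6 has 3 matches, 2 of which overlap, and Mcm3 has 2, while Pola1 and Clspn, which rose most among the promoters read, have 1 each, as has Orc3, the gene that was lower. Capitals mark the E2F-type words or their reverse complements, and each sequence runs 5′ to 3′ on the gene's own strand. The windows are chr1:128359656-128359955 (minus strand), chr1:20820263-20820562 (minus), chrX:93632106-93632405 (minus), chr4:126556730-126557029 (plus) and chr4:34614893-34615192 (minus).
Mcm6: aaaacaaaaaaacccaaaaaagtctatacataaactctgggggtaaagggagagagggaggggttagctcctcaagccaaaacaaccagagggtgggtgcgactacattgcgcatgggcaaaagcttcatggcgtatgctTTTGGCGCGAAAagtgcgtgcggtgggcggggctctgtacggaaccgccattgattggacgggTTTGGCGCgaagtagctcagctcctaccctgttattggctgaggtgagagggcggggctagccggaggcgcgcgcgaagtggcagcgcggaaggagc
Mcm3: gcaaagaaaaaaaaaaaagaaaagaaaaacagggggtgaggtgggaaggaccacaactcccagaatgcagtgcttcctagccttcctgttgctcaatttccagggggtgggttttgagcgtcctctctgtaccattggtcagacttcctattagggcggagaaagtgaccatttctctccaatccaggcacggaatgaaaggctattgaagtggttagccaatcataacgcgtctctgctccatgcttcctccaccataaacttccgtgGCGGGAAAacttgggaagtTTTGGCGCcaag
Pola1: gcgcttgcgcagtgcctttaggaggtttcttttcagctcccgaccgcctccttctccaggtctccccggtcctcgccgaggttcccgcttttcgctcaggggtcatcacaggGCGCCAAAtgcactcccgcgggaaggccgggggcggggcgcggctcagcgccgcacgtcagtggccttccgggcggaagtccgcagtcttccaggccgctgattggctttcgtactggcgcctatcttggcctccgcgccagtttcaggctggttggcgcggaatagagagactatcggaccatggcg
Clspn: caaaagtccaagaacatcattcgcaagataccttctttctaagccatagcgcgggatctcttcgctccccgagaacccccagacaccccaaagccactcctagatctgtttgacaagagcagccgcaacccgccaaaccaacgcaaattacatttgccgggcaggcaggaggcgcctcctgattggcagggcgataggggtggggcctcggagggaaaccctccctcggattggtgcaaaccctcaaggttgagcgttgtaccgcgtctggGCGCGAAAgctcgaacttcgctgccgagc
Orc3: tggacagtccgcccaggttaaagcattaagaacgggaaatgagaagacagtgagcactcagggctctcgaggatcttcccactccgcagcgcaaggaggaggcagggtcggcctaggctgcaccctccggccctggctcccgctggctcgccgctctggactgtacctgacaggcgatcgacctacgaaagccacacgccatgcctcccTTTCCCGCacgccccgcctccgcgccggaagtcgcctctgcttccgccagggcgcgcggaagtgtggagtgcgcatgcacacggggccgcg
A match is a string of letters in a window and says nothing of binding in these cells.

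The origin recognition complex, which marks origins and recruits the other licensing proteins, showed no common direction. Orc1 and Orc2 were higher, Orc3 was lower, and Orc4, Orc5 and Orc6 did not pass. Orc2 had 101 and 98.7 CPM in Rb1 libraries and 51.3 and 52.8 CPM in vehicle libraries, with no overlap (1.92-fold, log2 fold change 0.94 ± 0.08 SE, adjusted p = 7.3e-07). Orc1, whose protein is degraded during S phase in human cells, was the scarcest of the complex, at 6.60 and 5.995 FPKM in Rb1 libraries and 3.38 and 3.42 FPKM in vehicle libraries (1.84-fold, adjusted p = 3.7e-05). Orc3 (ENSMUSG00000040044, chromosome 4, 34570796 to 34614944, minus strand, GRCm38) had 111 and 109 CPM in Rb1 libraries and 129 and 121 CPM in vehicle libraries, a small difference whose groups did not overlap (log2 fold change -0.18 ± 0.07 SE, adjusted p = 0.0490). That call was lost without Rb1 replicate 1 (-0.19, adjusted p = 0.25), without Rb1 replicate 2 (-0.16, adjusted p = 0.334) and with the replicate number as a block (adjusted p = 0.0951), and the sign turned with library totals (0.07, adjusted p = 0.472). With the trend on gene length removed Orc3 was lower, at -0.35 (adjusted p = 0.00036). With the GC trend removed as well, a setting chosen after seeing the data, it was at -0.58 (adjusted p = 2.3e-06). Orc4 and Orc5 had log2 fold changes of 0.17 (adjusted p = 0.113) and 0.04 (adjusted p = 0.615). Orc6 was at 60.5 and 54.8 CPM in Rb1 libraries and 49.98 and 50.5 CPM in vehicle libraries (log2 fold change 0.20, adjusted p = 0.0538). It was at 0.19 without vehicle replicate 1 and at 0.22 without vehicle replicate 2. Without vehicle replicate 1, Orc4 was at 0.26. Here and below, with 1 library left out, the spread was estimated from the group that kept 2 libraries. The median log2 difference between replicates was 0.159 in the vehicle group and 0.083 in the Rb1 group. Whether a gene passes in such a fit therefore depends in part on which group lost a library.

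Per unit of length, the deposited FPKM put the subunits in a different order in the 2 groups. In both Rb1 libraries Orc2 led (26.2 and 25.6 FPKM), followed by Orc6, Orc3, Orc5, Orc4 and Orc1. In the vehicle libraries Orc3 and Orc6 led (20.9 and 19.7 FPKM for Orc3, 19.98 and 20.4 FPKM for Orc6), with Orc2 below both (13.1 and 13.6 FPKM). Orc3 and Orc6 changed places between the vehicle libraries, and so did Orc2 and Orc5 (13.0 and 13.7 FPKM for Orc5). Neither pair of neighbours differs beyond its spread there.

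Among the licensing factors Cdt1, the loader of the helicase, was higher, and neither its partner Cdc6 nor its inhibitor gene Gmnn passed. Cdt1 had 92.3 and 89.8 CPM in Rb1 libraries and 48.2 and 46.1 CPM in vehicle libraries (1.93-fold, log2 fold change 0.95 ± 0.08 SE, adjusted p = 8.0e-07). Cdc6 had 48.4 and 51.2 CPM in Rb1 libraries and 47.2 and 49.7 CPM in vehicle libraries (log2 fold change 0.04, adjusted p = 0.690). The Cdc6 values of the groups overlapped. Gmnn had 51.0 and 55.6 CPM in Rb1 libraries and 49.4 and 41.9 CPM in vehicle libraries (log2 fold change 0.22 ± 0.10 SE, adjusted p = 0.0598). The lower vehicle library was replicate 2. Gmnn passed as higher with the replicate block (adjusted p = 0.0492), and it was at 0.34 without vehicle replicate 1. The FPKM ratio of Cdt1 to Gmnn was 0.844 and 0.754 in Rb1 libraries and 0.455 and 0.513 in vehicle libraries, and that of Cdc6 to Cdt1 was 0.315 and 0.342 in Rb1 libraries and 0.587 and 0.648 in vehicle libraries.

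All 6 subunits of the MCM helicase ring, which unwinds DNA ahead of the fork, were higher, by unequal amounts. Mcm6 (ENSMUSG00000026355, chromosome 1, 128331590 to 128359664, minus strand, GRCm38) had 311 and 318 CPM in Rb1 libraries and 109 and 110.3 CPM in vehicle libraries (2.87-fold, log2 fold change 1.52 ± 0.07 SE, adjusted p = 6.6e-09). Mcm4 followed at 2.76-fold, then Mcm2 at 2.28-fold, Mcm3 at 2.02-fold and Mcm5 at 1.75-fold. Mcm7 was at 129 and 131 CPM in Rb1 libraries and 95.7 and 99.8 CPM in vehicle libraries (1.33-fold, log2 fold change 0.41 ± 0.07 SE, adjusted p = 0.00032). In each of the 6 genes both Rb1 libraries lay above both vehicle libraries. The median log2 fold change of the ring was 1.10.

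The ring's proteins assemble in equal numbers, but the FPKM of their genes were not equal in either group. The order depends on the gene lengths used. By CPM, Mcm2 (mean 166 in Rb1 libraries) was above Mcm4 (126) and Mcm7 (130). In vehicle libraries Mcm2 (72.6 CPM) was above Mcm4 (45.7) and below Mcm7 (97.7). In both Rb1 libraries the FPKM order was Mcm6, Mcm3, Mcm5, Mcm4, Mcm7 and Mcm2, with Mcm6 at 66.6 and 68.1 FPKM and Mcm2 at 23.3 and 24.2 FPKM. In both vehicle libraries it was Mcm3, Mcm5, Mcm6, Mcm7, Mcm4 and Mcm2, with Mcm3 at 24.6 and 26.2 FPKM and Mcm2 at 10.0 and 10.7 FPKM. Mcm6, which led in the Rb1 libraries, was at 23.0 and 23.5 FPKM in the vehicle libraries, below Mcm3 and Mcm5. The FPKM ratio of Mcm6 to Mcm7 averaged 2.30 ± 0.0149 in Rb1 libraries and 1.06 ± 0.0194 in vehicle libraries (SD, n = 2 each), and that of Mcm4 to Mcm7 was 1.17 and 1.22 in Rb1 libraries and 0.552 and 0.6001 in vehicle libraries. Mcm7 shares 7.25% of its exon bases with Ap4m1 on the other strand, and Ap4m1 had 411 counts in each Rb1 library and 137 and 147 counts in the vehicle libraries.

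**Figure D2:**
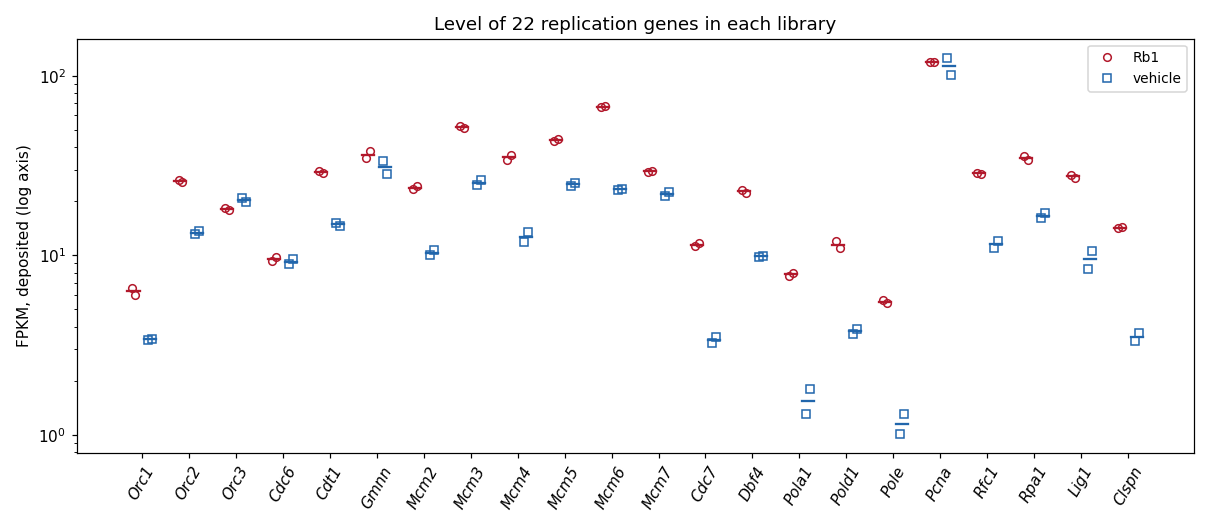
Deposited FPKM (log axis) of a selection of the replication genes, on a shared axis, in the 2 Rb1 and the 2 vehicle libraries. There is 1 point per library, and short lines are group means. Mcm6 stands at 66.6 and 68.1 FPKM in Rb1 libraries and 23.0 and 23.5 FPKM in vehicle libraries, and the Pcna points of the groups overlap.

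All 8 genes of helicase activation were higher, with a median log2 fold change of 1.06. Cdc7, the kinase that fires origins, had 46.8 and 48.8 CPM in Rb1 libraries and 13.8 and 14.7 CPM in vehicle libraries (3.35-fold, log2 fold change 1.74 ± 0.10 SE, adjusted p = 3.3e-08). Dbf4, its regulatory subunit, was 2.28-fold higher, at 202 and 194 CPM in Rb1 libraries and 86.5 and 87.1 CPM in vehicle libraries. The FPKM ratio of Cdc7 to Dbf4 was 0.483 and 0.525 in Rb1 libraries, against 0.334 and 0.352 in vehicle libraries. Mcm10, which helps the helicase to start, was 2.50-fold higher (adjusted p = 3.1e-07), and Cdc45, which binds the ring, 1.91-fold (adjusted p = 7.3e-06). The 4 subunits of GINS, which with CDC45 and the ring form the moving helicase, spread widely. Gins1 had 29.6 and 30.5 CPM in Rb1 libraries and 12.1 and 10.4 CPM in vehicle libraries (2.67-fold, log2 fold change 1.42 ± 0.12 SE, adjusted p = 6.5e-07). Gins2, Gins3 and Gins4 were 1.36-fold, 1.30-fold and 1.20-fold higher, with adjusted p = 0.0053, 0.015 and 0.018. The call of Gins3 was lost when Rb1 replicate 1 (adjusted p = 0.107) or Rb1 replicate 2 (adjusted p = 0.0723) was left out, and that of Gins4 likewise (adjusted p = 0.0664 without the first, 0.221 without the second). Gins2 shares 67.3% of its exon bases with Gse1 on the other strand, and no source says whether counting used strand, so reads of the pair may be split between them.

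Polymerase alpha-primase held the gene with the largest log2 fold change of the 47 before any length correction. Pola1, its catalytic subunit (ENSMUSG00000006678, chromosome X, 93304767 to 93632155, minus strand, GRCm38), had 67.8 and 70.4 CPM in Rb1 libraries and 11.7 and 15.8 CPM in vehicle libraries (5.02-fold, log2 fold change 2.33 ± 0.12 SE, adjusted p = 2.0e-08). Its value lay at percentile 98.5 of the fold changes of all genes tested. Pola2, the accessory subunit, was 1.62-fold higher (adjusted p = 2.2e-05), and the primase genes Prim1 and Prim2 were 1.80-fold and 1.32-fold higher (adjusted p = 5.0e-06 and 0.0058). Prim2 no longer passed without Rb1 replicate 2 (log2 fold change 0.33, adjusted p = 0.0982). Pola1 was the scarcest of the 4 transcripts in the vehicle libraries (1.31 and 1.79 FPKM) and stood above Prim2 in the Rb1 libraries (7.69 and 7.98 FPKM). The FPKM ratio of Pola1 to Pola2 was 0.421 and 0.431 in Rb1 libraries and 0.111 and 0.164 in vehicle libraries.

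The same contrast of a catalytic subunit with its partners was seen in polymerases epsilon and delta. Pole, the catalytic subunit of the leading-strand polymerase (ENSMUSG00000007080, chromosome 5, 110286306 to 110337474, plus strand, GRCm38), had 62.8 and 60.4 CPM in Rb1 libraries and 11.4 and 14.6 CPM in vehicle libraries (4.74-fold, log2 fold change 2.25 ± 0.12 SE, adjusted p = 1.6e-08). Pole2 was 1.98-fold higher (adjusted p = 3.0e-05), and Pole3, a histone-fold subunit also found in a chromatin remodelling complex, had 96.7 and 102 CPM in Rb1 libraries and 88.5 and 91.8 CPM in vehicle libraries (log2 fold change 0.14, adjusted p = 0.123). Pole3 was at 0.18 without vehicle replicate 2. Between the lowest and the highest of the 3 genes by FPKM, Pole and Pole3, the values differed 8.43-fold and 9.20-fold in Rb1 libraries and 42.6-fold and 34.5-fold in vehicle libraries. Pold1, the catalytic subunit of polymerase delta, had 58.2 and 53.4 CPM in Rb1 libraries and 17.8 and 19.0 CPM in vehicle libraries (3.03-fold, log2 fold change 1.60 ± 0.10 SE, adjusted p = 5.5e-08). Pold2 and Pold3 were 1.60-fold and 1.61-fold higher (adjusted p = 8.0e-06 and 2.1e-05). The differences between subunits of a complex were not tested as such, and the standard errors above are those of each gene's own fold change.

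The clamp itself did not pass. Pcna (ENSMUSG00000027342, chromosome 2, 132249162 to 132253314, minus strand, GRCm38) had 285 and 287 CPM in Rb1 libraries and 306 and 243 CPM in vehicle libraries (log2 fold change 0.06 ± 0.10 SE, adjusted p = 0.602). The Rb1 libraries were close to each other and lay between the vehicle libraries, which were further apart. Without vehicle replicate 1, the only library above the Rb1 values, Pcna was at 0.23. It was the most abundant of the 47 transcripts per length in every library, at 119 and 119 FPKM in Rb1 libraries and 126 and 101 FPKM in vehicle libraries. The processed pseudogene Pcna-ps2, whose reads may be shared with Pcna, had 15 and 14 counts in Rb1 libraries and 13 and 12 counts in vehicle libraries. Of the clamp loader, Rfc1, the large subunit, had 174 and 172 CPM in Rb1 libraries and 66.9 and 73.0 CPM in vehicle libraries (2.47-fold, log2 fold change 1.30 ± 0.08 SE, adjusted p = 4.6e-08). The small subunits Rfc4, Rfc5, Rfc2 and Rfc3 were 1.67-fold, 1.41-fold, 1.25-fold and 1.21-fold higher, with adjusted p between 2.2e-05 and 0.026. Rfc2 did not pass without Rb1 replicate 2 (adjusted p = 0.0774), and Rfc3 did not pass without Rb1 replicate 1 (adjusted p = 0.0874), Rb1 replicate 2 (adjusted p = 0.161) or vehicle replicate 2 (adjusted p = 0.064).

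Replication protein A coats single-stranded DNA at the fork. Its large subunit Rpa1 had 199.5 and 190.4 CPM in Rb1 libraries and 91.1 and 96.1 CPM in vehicle libraries (2.08-fold, log2 fold change 1.06 ± 0.07 SE, adjusted p = 1.5e-07). Rpa2 was 1.55-fold higher (adjusted p = 4.8e-05). Rpa3, the smallest, had 28.6 and 25.3 CPM in Rb1 libraries and 25.8 and 22.1 CPM in vehicle libraries, values that overlapped (log2 fold change 0.17, adjusted p = 0.194). Without vehicle replicate 1 Rpa3 was at 0.29. Per length the order was Rpa1, Rpa2, Rpa3 in both Rb1 libraries (35.8 and 34.1 FPKM for Rpa1, 25.2 and 22.2 FPKM for Rpa3) and the opposite in both vehicle libraries (16.1 and 17.1 FPKM for Rpa1, 22.4 and 19.3 FPKM for Rpa3).

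Both genes of lagging-strand fragment processing were higher. Lig1, the ligase that seals the fragments, had 119.9 and 115 CPM in Rb1 libraries and 36.3 and 45.2 CPM in vehicle libraries (2.88-fold, log2 fold change 1.53 ± 0.10 SE, adjusted p = 1.4e-07). Fen1, the flap nuclease, had the fewest counts of the 47 genes and was 1.60-fold higher, at 9.84 and 12.2 CPM in Rb1 libraries and 6.23 and 7.49 CPM in vehicle libraries (log2 fold change 0.68 ± 0.17 SE, adjusted p = 0.0034). The antisense gene Gm10143 covers 78.8% of the exon bases of Fen1 and had 8 and 13 counts in Rb1 libraries and 3 and 2 counts in vehicle libraries, so the Fen1 values are uncertain.

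The fork protection genes were all higher, with a wide gap inside the group. Clspn, whose protein carries the checkpoint signal from stalled forks to the kinase CHK1 (ENSMUSG00000042489, chromosome 4, 126556935 to 126593903, plus strand, GRCm38), had 101 and 103 CPM in Rb1 libraries and 24.4 and 26.5 CPM in vehicle libraries (4.02-fold, log2 fold change 2.01 ± 0.09 SE, adjusted p = 4.1e-09). Timeless was 3.28-fold higher, at 44.0 and 42.6 CPM in Rb1 libraries and 13.8 and 12.7 CPM in vehicle libraries. Tipin, whose protein binds TIMELESS, had 60.5 and 64.4 CPM in Rb1 libraries and 55.2 and 51.5 CPM in vehicle libraries (1.17-fold, adjusted p = 0.028). The call of Tipin was lost when Rb1 replicate 1 (adjusted p = 0.101) or Rb1 replicate 2 (adjusted p = 0.293) was left out. The FPKM ratio of Clspn to Tipin was 0.436 and 0.415 in Rb1 libraries and 0.115 and 0.134 in vehicle libraries, and that of Timeless to Tipin was 0.223 and 0.202 in Rb1 libraries and 0.0762 and 0.0752 in vehicle libraries.

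**Figure D3:**
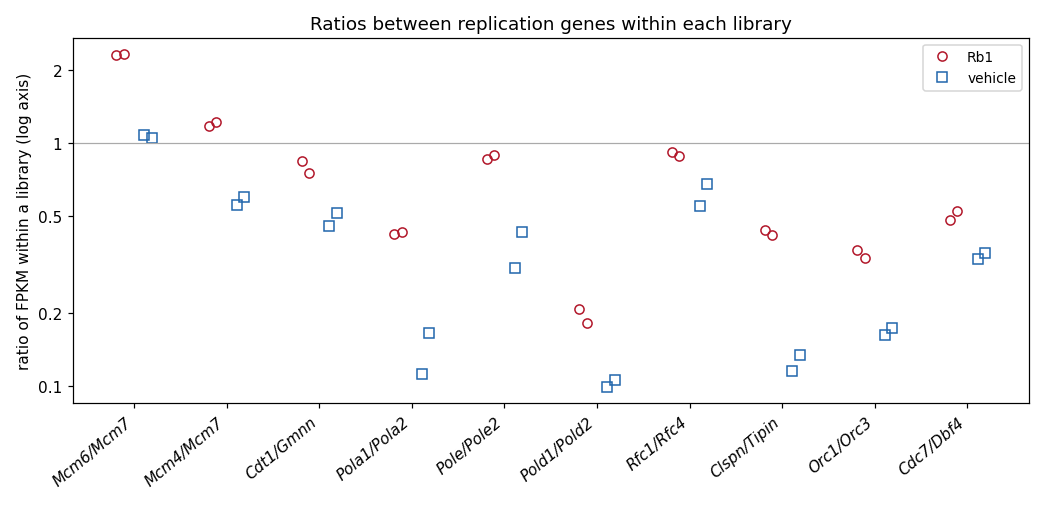
Ratio of deposited FPKM between genes of the same complex or step (log axis), 1 point per library, Rb1 libraries beside vehicle libraries. Each plotted ratio keeps its groups apart, among them Mcm6 to Mcm7 (2.29 and 2.31 in Rb1 libraries, 1.08 and 1.05 in vehicle libraries).

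The ratios given here were chosen after the values of the genes were seen, and with 2 libraries against 2 an exact two-sided permutation test cannot go below p = 0.333, so no test is given for them.

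Fold change went with gene length in these libraries, for the replication genes as for others. Across the 47 genes the Spearman correlation of log2 fold change with gene length was 0.37 (n = 47), and across all genes tested it was 0.38 (n = 13518). Genes of 1 library share its depth and preparation, so these are descriptions. Of genes up to 2 kb, 13.4% were called higher in the whole table (median log2 fold change -0.56), and 5 of 7 replication genes (median 0.26). From 2 to 4 kb the shares were 25.5% of all genes (median -0.21) and 14 of 17 replication genes (median 0.81). From 4 to 6 kb they were 40.6% of all genes (median 0.10) and 10 of 11 replication genes (median 0.69). Above 6 kb they were 61.6% of all genes (median 0.52) and 9 of 12 replication genes (median 1.25). In each class the replication genes' median lay above that of all genes of like length.

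**Figure D4:**
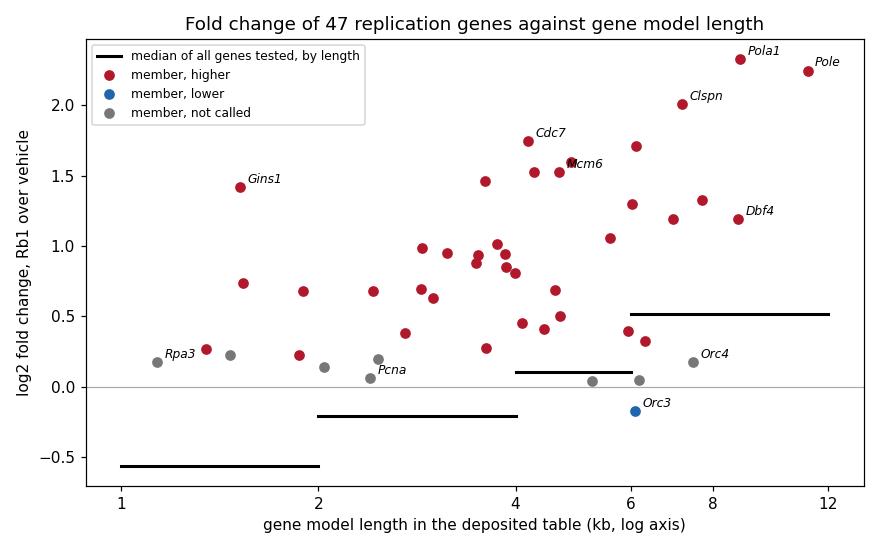
Log2 fold change (Rb1 over vehicle) against gene length in kb (log axis) for the 47 replication genes, with the median of all genes tested in 4 length classes as lines. The median of all genes runs from -0.56 in the shortest class to 0.52 in the longest, and the replication genes' medians are 0.26, 0.81, 0.69 and 1.25.

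Once each library's trend on gene length was removed, 41 replication genes were higher and 1 lower, with a median log2 fold change of 0.95 against 0.08 for all genes. The short genes moved most. Gmnn was then at 0.85 (adjusted p = 3.0e-07), Rpa3 at 0.87 (adjusted p = 3.8e-06), Pole3 at 0.62 (adjusted p = 2.3e-06) and Pcna at 0.46 (adjusted p = 0.00014), so that each of these 4 passed. Orc6 passed as well, at 0.58 (adjusted p = 1.4e-05), while Prim2 (0.24, adjusted p = 0.0522) and Rfc2 (0.13, adjusted p = 0.161) did not. Long genes had smaller values than before, with Pola1 at 1.91, Pole at 1.68 and Clspn at 1.72. Gins1, at 2.03, was then the largest of the 47, and it remained above Pola1 with the GC trend removed as well (1.93 against 1.83). Some contrasts within complexes changed with it. Rfc4 (1.35) then stood above Rfc1 (1.14), and Rpa1, Rpa2 and Rpa3 stood at 0.95, 0.90 and 0.87, while Pola1, Pold1 and Pole stayed above their partners and Mcm6 (1.53) above Mcm7 (0.46). Cdt1 and Gmnn were at 1.19 and 0.85, in place of 0.95 and 0.22. Clspn and Tipin were at 1.72 and 0.76, in place of 2.01 and 0.23. With the trend on GC content removed too, an alternative chosen after seeing the data, 41 genes were higher and 3 lower. The lower genes were Orc3 (-0.58), Orc4 (-0.49, adjusted p = 0.00011) and Orc5 (-0.40, adjusted p = 0.00013), whose transcripts have GC contents of 38.6%, 36.8% and 38.2%, and Rpa3, with 34.2% GC, was at 0.24 (adjusted p = 0.0511).

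Several replication genes share a start region with a neighbour on the other strand. The table's coordinates are those of GRCm38, and 11 of the 47 genes have a protein-coding neighbour that starts within 1 kb in the opposite direction. Mcm4 starts 466 bases from Prkdc, which encodes a DNA repair kinase and was also higher (log2 fold change 1.90, adjusted p = 2.5e-08). Dbf4 starts 134 bases from the mitochondrial carrier gene Slc25a40, likewise higher (1.03, adjusted p = 6.4e-07). Orc3 starts 13 bases from Rars2, a mitochondrial arginyl-tRNA synthetase gene that was lower (-0.26, adjusted p = 0.0105), as Orc3 was. In other pairs the directions differed: Abhd12 beside Gins1 was lower (-0.34, adjusted p = 0.0022), and Tmem258 beside Fen1 was lower (-0.91, adjusted p = 2.5e-06). Pxmp2, 120 bases from Pole, did not pass (-0.63, adjusted p = 0.154). Exon bases are shared with some other gene by 17 of the 47 genes, 14 of them with a gene on the other strand. Besides those named above, Orc2 shares 29.8% of its exon bases with Nif3l1 and Rfc2 shares 15.1% with Lat2.

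Other replication factors, a list of 31 genes outside the 47, were mostly higher too: 26 were higher, 2 lower and 3 (Mcm9, Rnaseh2c and Chtf8) not called, with a median log2 fold change of 1.06. Of all genes tested 35.7% were higher, and of those from 4 to 6 kb, where the list's median length (4956 bases) lies, 40.6%. Topbp1, Dnmt1 and Rif1, named below, are over 6 kb, where 61.6% of all genes were higher. Their folds are without length correction. With the length trend removed Mcm9 was lower (-0.46, adjusted p = 0.0106) and Chtf8 higher (0.29, adjusted p = 0.000632), and Rnaseh2c turned to 0.40 (adjusted p = 0.000561). Topbp1, which activates origins and the checkpoint kinase ATR, averaged 211 ± 12.6 CPM in Rb1 libraries and 47.01 ± 3.25 CPM in vehicle libraries (SD, n = 2 each; 4.50-fold, adjusted p = 2.0e-09). Dnmt1, the maintenance DNA methyltransferase, averaged 354 ± 1.87 CPM in Rb1 libraries and 85.7 ± 4.599 CPM in vehicle libraries (4.14-fold, adjusted p = 1.3e-09). Rif1, which sets the timing of origins, was 3.85-fold higher. The 2 lower genes were the smallest subunits of polymerases delta and epsilon. Pold4 averaged 55.9 ± 1.33 CPM in Rb1 libraries and 107 ± 11.4 CPM in vehicle libraries (log2 fold change -0.94 ± 0.09 SE, adjusted p = 2.5e-06), and Pole4 averaged 49.1 ± 1.04 CPM in Rb1 libraries and 82.9 ± 6.53 CPM in vehicle libraries (-0.76 ± 0.09 SE, adjusted p = 9.3e-06). After removal of the length and GC trends Pold4 was at -0.13 (log2 fold change) and did not pass.

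The genes that remove CDT1 in S phase were all higher (5 of 5, median log2 fold change 0.99). Of all genes tested 35.7% were higher, and of those over 6 kb 61.6%. The median length was 6408 bases for this list and 7152 bases for the checkpoint list that follows. Folds of both lists are without length correction unless stated. Dtl, the substrate receptor of the CRL4 ubiquitin ligase, was 3.50-fold higher, at 78.6 and 78.6 CPM in Rb1 libraries and 20.7 and 24.2 CPM in vehicle libraries (adjusted p = 1.9e-08). Skp2, Cul4b, Ddb1 and Cul4a were 2.22-fold, 1.99-fold, 1.5-fold and 1.23-fold higher, and the call of Cul4a was lost without Rb1 replicate 1 (adjusted p = 0.0894) and with the length trend removed (log2 fold change 0.0977 in place of 0.30, adjusted p = 0.191). Of 5 genes of the S-phase checkpoint, Wee1 (3.72-fold), Chek1 (3.40-fold), Atr (3.10-fold) and Cdc25a (2.01-fold) were higher and Atrip was lower (log2 fold change -0.31, adjusted p = 0.017). The call of Atrip was lost without Rb1 replicate 1 (-0.23, adjusted p = 0.227).

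Among the E2F, retinoblastoma family and DREAM complex genes, which set the transcription of replication genes through the cycle, 16 of 20 were higher and 4 did not pass, with a median log2 fold change of 0.99. Of all genes tested 35.7% were higher, and of those from 4 to 6 kb, where the list's median length (5553 bases) lies, 40.6%. E2f8, a repressor E2F, averaged 51.1 ± 1.98 CPM in Rb1 libraries and 7.69 ± 1.06 CPM in vehicle libraries (SD, n = 2 each; 6.64-fold, adjusted p = 4.1e-09). Foxm1, an activator of mitotic genes, was 6.49-fold higher and Rbl1, which encodes the pocket protein p107, 5.82-fold higher. E2f1, the activator most often linked to S-phase entry, had 56.0 and 58.8 CPM in Rb1 libraries and 63.3 and 68.0 CPM in vehicle libraries (log2 fold change -0.19, adjusted p = 0.0513). It was at -0.25 without vehicle replicate 1. E2f1, E2f4, E2f5 and Lin37 are the 4 that did not pass and are named because they are few. On the list of 11 genes of the G1/S step, which holds cyclins, their kinases and the inhibitor genes Cdkn1a and Cdkn1b, 4 were higher, 5 lower and 2 not called (median -0.10). Over all genes tested 35.7% were higher and 36.3% lower, so these shares are near the background. Ccna2, the S-phase cyclin, averaged 129 ± 1.60 CPM in Rb1 libraries and 32.8 ± 1.16 CPM in vehicle libraries (3.94-fold). Cdk6 was 2.75-fold higher, while Ccnd3, a G1 cyclin, had 72.4 and 71.0 CPM in Rb1 libraries and 148 and 152 CPM in vehicle libraries (log2 fold change -1.06, adjusted p = 1.6e-07). Cdk4 was lower too (-0.50, adjusted p = 6.2e-05). The call of Cdk4 was lost with the replicate block and the length and GC trends removed together (-0.16, adjusted p = 0.055). The inhibitor gene Cdkn1a had the lowest log2 fold change of the list (-1.42 ± 0.08 SE, adjusted p = 3.1e-08). It was at 520 and 526 CPM in Rb1 libraries and 1392 and 1404 CPM in vehicle libraries. Ccnd1 and Cdk2 were also higher, Ccne2 and Ccnd2 also lower, and Ccne1 and Cdkn1b did not pass. Ccnd2 was at -0.22 (adjusted p = 0.022), and its call was lost without Rb1 replicate 1 (adjusted p = 0.101) or Rb1 replicate 2 (adjusted p = 0.30), as was that of Ccne2 without Rb1 replicate 2 (adjusted p = 0.126). Ccne2, at -0.30, was at -0.12 with the length trend removed (adjusted p = 0.158) and at -0.057 with library totals (adjusted p = 0.606), and passed under neither. The 10 genes of mitosis were all higher, with a median log2 fold change of 1.81, which is above the 0.74 of the replication genes. Their median length was 3581.5 bases, and 25.5% of all genes from 2 to 4 kb were higher. Aurkb, a mitotic kinase gene, averaged 115.5 ± 0.193 CPM in Rb1 libraries and 23.1 ± 2.77 CPM in vehicle libraries (log2 fold change 2.32, adjusted p = 3.3e-09). The difference between the mitotic and the replication genes was not tested.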

How the data were processed

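The samples were 2 Rb1 and 2 vehicle libraries of DC2.4 RNA, taken after 24 h. The authors deposited raw counts per gene, not normalised, and replicates were not pooled. FPKM values for the same genes, also deposited by the authors, equal counts over gene length and over a scale factor of each library. The factor was 1.09 times the total count in both Rb1 libraries and 0.908 and 0.943 times in the vehicle libraries, so the FPKM hold a composition scaling. No source used here names the aligner, counter, library kit or strand use. The submitters' processing notes name GRCm39 and mm39, but 46 of the 47 replication genes have the coordinates and the exon length of GENCODE M21, which is GRCm38, so coordinates are named GRCm38.

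Counts were tested with edgeR 4.0.16 in R 4.3.3 (quasi-likelihood test, TMM, filterByExpr, robust, no other term than group, leaving 2 residual degrees of freedom, two-sided, Benjamini-Hochberg over 13518 genes, threshold 0.05). The standard error is the size of the log2 fold change over the square root of F. CPM are TMM-scaled. Depth lay between 17829784 and 18641021 counts. The replicates of a group differed by more than sampling noise (chi-square per degree of freedom 2.87 with Rb1 and 11.8 with vehicle), and each was counted as 1 sample. Members and lists were chosen with earlier results of these data known. Every member may be named, and from each other list up to 3 called genes with the smallest p in each direction. Neighbours and genes that share exons with a member, and Mcm9, Rnaseh2c, Chtf8, Ddb1, Cul4a, Cdc25a, E2f1, E2f4, E2f5, Lin37, Cdk2, Ccne1, Ccne2, Ccnd2 and Cdkn1b, were named after their values were seen. Length and GC trends were removed as a natural spline with 5 degrees of freedom per library, taken from gene length and from the GC content of the longest GENCODE transcript.

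The replicate number stands in the labels' batch entry, and was taken to pair Rb1 with vehicle libraries. Deviations from the group means had a correlation of -0.05 between libraries of the same number over 13518 genes. Alternatives were other scalings and filters, DESeq2 1.42.0, limma 3.58.1 on counts (voom) and on log2(FPKM + 1) or log2(FPKM + 0.1), the replicate block, removal of the length trend, and each library left out in turn.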

Additional observations from a re-analysis of the deposited data

How the results depend on the processing

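Across 18 alternatives between 32 and 46 of the 47 replication genes were called higher, and 30 of the 38 higher calls held under all of them. Leaving out 1 library gave 32 to 43 higher and 0 to 1 lower, where the lone library of a group is assumed to vary like the other group. The single lower call, Orc3, gave a count of 0 with library totals, without a count filter, with DESeq2, with the replicate block, and on log2(FPKM + 1), log2(FPKM + 0.1) and log2(FPKM + 1) without a filter. Removing the length and GC trends gave 3, with or without the block. Library totals turned Orc3 to 0.0712 and Ccnd2 to 0.0293 (log2). Removing length and GC turned Orc4 to -0.49 and Orc5 to -0.40, with or without the block. Rnaseh2c turned to 0.40 with the length trend removed (0.40 with the block) and 0.47 with GC as well (0.48 with the block). E2f4 turned to 0.25 with library totals, 0.39 with the length trend removed (0.39 with the block) and 0.49 with GC as well (0.49 with the block), and Lin37 to 0.43 (0.43 with the block) and 0.52 (0.52 with the block). The causes were not tested. Counting TTTCCCGC and TTTGGCGC alone as E2F-type, 34.2% of the members and 3.58% of tested genes had a word.

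Lower calls of the S-phase checkpoint list were 0 in place of 1 with library totals, DESeq2 and log2(FPKM + 1) with and without a filter, and 0 to 1 with a library left out. Lower calls of the E2F, retinoblastoma and DREAM list were 2 with relative log expression factors and 1 without a filter, with a filter of 1 CPM, with the block and with length and GC removed, and 0 to 2 with a library left out. The G1/S list had 3 lower calls in place of 5 with library totals, and 3 to 6 with a library left out. The replicate block left 39 replication genes higher and 0 lower, and changed no other call of a member than those of Orc3 and Gmnn. The standard errors of the replication genes ran from 0.07 to 0.17 on the log2 scale. Gmnn at 0.22 ± 0.10 and Orc6 at 0.20 ± 0.08 differed by more than 2 standard errors. Their edgeR p-values were 0.044 and 0.039 before the Benjamini-Hochberg adjustment, and 0.0598 and 0.0538 after it, so neither passed.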
